A study of Mus musculus with 2 samples.

Results

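Ribosomal protein genes were examined as 1 group of 83 genes, out of 32285 genes in the deposited feature table of a single-cell RNA experiment on mouse hair follicle cells. The members were the gene symbols that name a protein of the large (Rpl) or small (Rps) cytoplasmic ribosomal subunit by number and an optional letter, together with the stalk proteins Rplp0, Rplp1 and Rplp2 and the laminin-receptor-like protein Rpsa. Symbols ending in a pseudogene tag (5 genes) were left out. The symbol alone chose the members, and no measured value did.

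The cells came from mice (C57B6/J) carrying Sox9-CreER and R26-LSL-YFP, in which an inducible Cre under Sox9 control switches on a YFP reporter in the SOX9-expressing cells of the hair follicle. Each mouse had either intact Phgdh alleles (Phgdh +/+) or floxed alleles (Phgdh fl/fl), which that Cre can recombine, and PHGDH catalyses the entry step into serine synthesis. Both genotypes were sampled from unwounded skin and at 3 and 5 days after wounding, which gives 6 conditions. Unwounded cells were sorted for high integrin-α6, CD34, CD200 and YFP, without SCA1 and without non-epidermal surface markers. Wounded cells were sorted for high integrin-α6 and YFP, with no gate on CD34, CD200 or SCA1, so the wound comparisons also set one sort gate against another. The mice are labelled as pooled male and female, the number of animals per condition is not stated, and cells of all 6 conditions carried hashtag antibodies and went into 1 capture. Each condition is therefore 1 pool of cells with no replicate. No test between conditions was possible, "higher" and "lower" describe these pools alone, and every interval given is a 95% interval that covers counting error only.

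Cytoplasmic ribosomes are built from ribosomal RNA and a full set of ribosomal proteins, which cells make in matched amounts and of which unassembled copies are degraded. The messenger RNAs of these proteins are abundant and carry a terminal oligopyrimidine tract at their 5′ end, a cytosine followed by a run of pyrimidines, through which mTOR and LARP1 control their translation and stability. Bulge stem cells of the hair follicle are largely quiescent in resting skin, and their descendants enter the epidermis and divide after wounding. A few members have a second gene copy that encodes a close relative, such as Rpl22l1 beside Rpl22.

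The 6 pools held between 406 and 1434 cells. The unwounded pools had 3241223 (+/+) and 5167131 (fl/fl) gene UMIs, where a UMI is 1 counted RNA molecule, and the wounded pools between 22247350 and 70925244. The median was 7174.5 and 7243 UMIs per cell in the unwounded pools and between 36277 and 45701.5 in the wounded pools. The label of hair follicle stem cells held for the unwounded pools, of which 95.8% (+/+) and 96.5% (fl/fl) lay in clusters with raised bulge markers such as Cd34, Lgr5 and Lhx2. It held for between 3.56% and 19% of the cells in the wounded pools. CPM, used throughout, is the share of a gene in all gene UMIs of its pool in the usual scaling. The summed CPM of 8 bulge markers was 15794 and 16808 in the unwounded pools and between 376.3 and 922.7 in the wounded ones. Fibroblast markers (6 genes) summed to 29.3 and 32.3 CPM unwounded and at most 1.66 CPM wounded, and those of endothelial, myeloid, T, Langerhans and Merkel cells to at most 6.77 CPM in any pool. Melanocyte markers (4 genes) summed to 0.617 (+/+) and 17.998 CPM (fl/fl) unwounded, 1.49 and 1.35 CPM at 3 days and 18.3 and 13.2 CPM at 5 days, and mural markers (3 genes) to between 0.309 and 20.5 CPM. Wound-edge keratinocyte markers (7 genes) summed to 3583 CPM in unwounded +/+, 1618 CPM in unwounded fl/fl and between 19630 and 22528 CPM in wounded pools. The part of these cells in the results was not tested. Cycling markers (6 genes) summed to 89.2 and 91.7 CPM unwounded and between 685.5 and 729.5 CPM wounded. Phgdh itself stood between 15.3 and 25.2 CPM in the fl/fl pools and between 54.3 and 138.3 CPM in the +/+ pools; the floxed exons are not given in the sources used here, so residual 3′ tags are not a measure of intact transcript. Female cells, by Xist, made up 31.1% of the +/+ pool at 3 days and 23.7% at 5 days, and 0 cells in each of the other 4 pools.

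The bases around the annotated start are shown for 6 members, because the pyrimidine tract known from this class of mRNA sits there. They are the 3 members with the highest and the 3 with the lowest ratio at 3 days in +/+ cells for which a window is shown (Rpl21 and Rps14 are not), from RefSeq on GRCm38.p6. Each line gives 15 bases before and 15 from the annotated start on, 5′ to 3′ on the gene's strand, with the longest run of pyrimidines that begins with C in capitals.
Rps2 (chr17:24720048-24720077, plus strand): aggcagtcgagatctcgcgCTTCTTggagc
Rpl22l1 (chr3:28805493-28805522, plus strand): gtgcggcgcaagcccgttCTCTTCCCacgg
Rpl41 (chr10:128549154-128549183, minus strand): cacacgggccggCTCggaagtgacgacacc
Rps27 (chr3:90213634-90213663, minus strand): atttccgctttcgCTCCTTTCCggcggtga
Rps21 (chr2:180257364-180257393, plus strand): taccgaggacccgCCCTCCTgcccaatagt
Rpl35a (chr16:33056467-33056496, plus strand): gcggggcttgCCTTCCTCTTTCCgccatct

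The capitals span 6 bases in Rps2, 8 in Rpl22l1 and 3 in Rpl41, and 9, 7 and 13 bases in Rps27, Rps21 and Rpl35a. Rps21 and Rpl35a have 2 and 3 annotated starts, of which the one with the longest run is shown, while the 3 highest members have 1 each, so the run lengths of the 6 are not compared. A run of at least 8 pyrimidines beginning with C lay in this 30-base window in 26 of the 63 members with a window (41.3%), and in 10.8% of all 27025 genes with one. At a run of at least 5 bases the shares were 66.7% of members and 40.3% of all genes. Annotated starts can miss the true start by some bases, and the run was searched on the gene's strand alone.

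Ribosomal protein genes made up a larger share of all gene UMIs in the wounded than in the unwounded pools. In unwounded cells the summed members took 17.1% of UMIs in +/+ and 18.6% in fl/fl. The +/+ pools of wounded skin had 21.7% on day 3 and 22.8% on day 5, and the fl/fl pools 21.8% and 22.1%. All 4 wounded pools thus lay above both unwounded pools. The summed log2 ratio of shares, wounded over unwounded, was 0.34 (0.34 to 0.35) at 3 days and 0.42 (0.41 to 0.42) at 5 days in +/+ cells, and 0.24 (0.23 to 0.24) and 0.25 (0.25 to 0.26) in fl/fl cells. These comparisons share their unwounded pool within a genotype. Both subunits took part: small subunit members went from 7.60% of UMIs in unwounded +/+ cells to 9.57% at 3 days, and large subunit and stalk members from 9.50% to 12.1%.

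**Figure D1:**
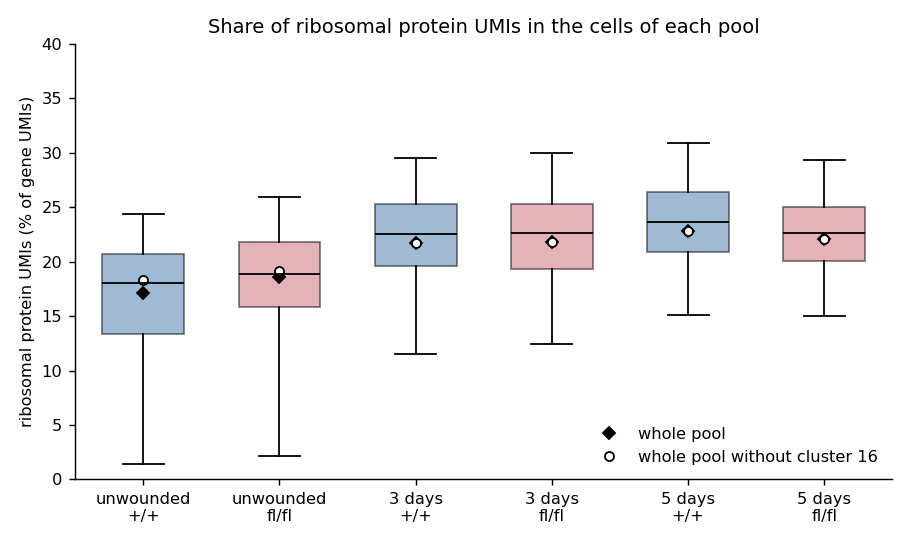
Share of ribosomal protein UMIs per cell (% of the gene UMIs of the cell, y axis) in each of the 6 pools; boxes span the quartiles with the median as a line, whiskers reach the 5th and 95th percentile of cells, blue is Phgdh +/+ and red Phgdh fl/fl. Filled diamonds give the share over the whole pool and open circles the share without cluster 16; the medians are 18.05% and 18.9% in the unwounded and between 22.5% and 23.6% in the wounded pools.

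The medians over cells were also higher in each wounded pool than in both unwounded pools. The median share per cell was 18.05% (quartiles 13.3% and 20.7%) in unwounded +/+ cells and 18.9% (15.8% and 21.8%) in unwounded fl/fl cells. In wounded +/+ pools it was 22.5% on day 3 and 23.6% on day 5, and in wounded fl/fl pools 22.7% and 22.6%. The quartile ranges of unwounded and wounded cells overlapped, except between unwounded and 5-day +/+ cells, whose nearest quartiles were 20.7% and 20.9%. The share of 1 class of RNA also moves with that of every other class. Mitochondrial UMIs moved the other way, from 5.01% and 5.00% of UMIs in unwounded +/+ and fl/fl cells to between 3.85% and 4.07% in wounded pools. The nuclear RNA Malat1 took 1.76% and 1.67% of unwounded and between 0.47% and 0.58% of wounded UMIs. The part of both in the ribosomal protein difference was not tested. With cells limited to 5% mitochondrial UMIs, the summed ratio was 0.19 at 3 days and 0.26 at 5 days in +/+ cells, and 0.13 and 0.16 in fl/fl cells. With a limit of 20% it was 0.49, 0.55, 0.37 and 0.38 in the same order.

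Of the 83 members, 80 reached 50 CPM on average over the 6 pools, and Rpl3l, Rpl10l and Rpl39l did not. At 3 days, 13 of the 80 members were at least 1.5-fold higher in wounded +/+ cells and 0 were lower by that factor. Among all 3043 genes of the same minimum, 29.7% were higher and 25.6% lower by 1.5-fold. At 5 days in +/+ cells 22 members were higher and 0 lower, against 28.5% and 26.1% of all genes. In fl/fl cells 8 members were higher and 0 lower at 3 days, against 30% and 26% of all genes. At 5 days 8 were again higher and 0 lower, against 29.7% and 26.5%. At 5 days in +/+ cells the 22 members are 27.5% of the 80, near the share of all genes. The members were spread less widely than other genes. Their quartiles lay at log2 ratios of 0.18 and 0.52 at 3 days in +/+ cells, and those of all genes at -0.60 and 0.71.

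Most members leaned upward by a small amount. In +/+ cells 72 of 80 members were above 0 at 3 days and 75 at 5 days, with medians of 0.30 and 0.40 (all genes 0.15 and 0.10). In fl/fl cells the counts were 66 and 65, with medians of 0.22 and 0.26 (all genes 0.12 and 0.11). The share of all genes above 0 was not counted. The direction of the lowest members depends on scaling. TMM factors, which scale pools to the bulk of their genes rather than to their totals, add between 0.53 and 0.60 to every log2 ratio of wounded over unwounded. On that scale all 80 members were above 0 in each wound comparison, and 70, 76, 60 and 63 of them were at least 1.5-fold higher (+/+ at 3 and 5 days, then fl/fl), against 56.1%, 55.5%, 52.9% and 54.6% of all genes.

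**Figure D2:**
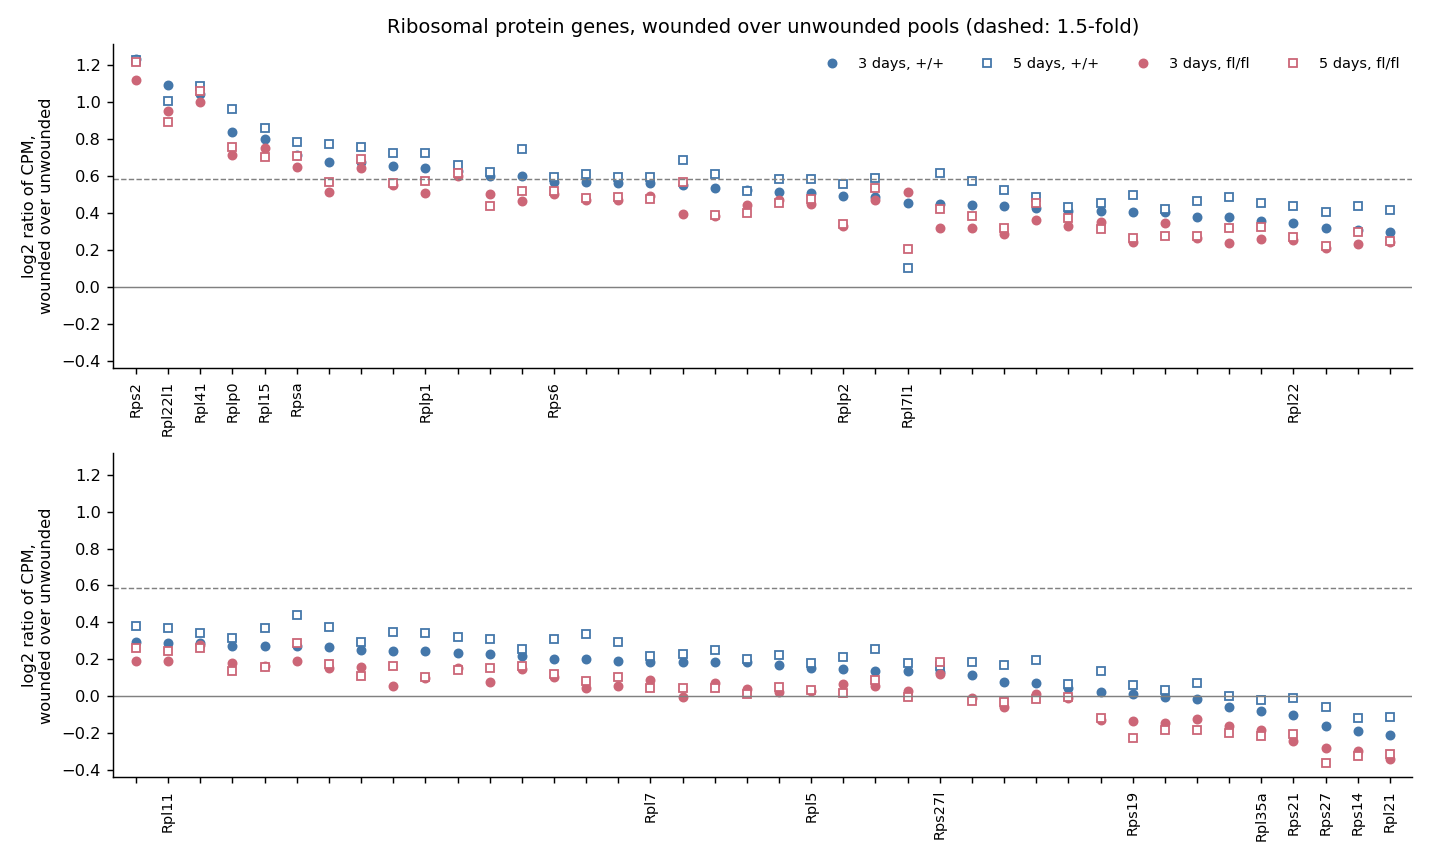
Log2 ratio of CPM, wounded over unwounded (y axis), for the 80 ribosomal protein genes that average 50 CPM or more, ordered by their ratio at 3 days in +/+ cells (x axis, continued in the lower panel, with symbols for the members described in the text on wounds). Filled circles are 3 days and open squares 5 days, blue is Phgdh +/+ and red Phgdh fl/fl. Rps2, Rpl22l1 and Rpl41 have the highest ratios in all 4 comparisons.

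Rps2, a core protein of the small subunit that lines the mRNA entry channel, had the highest ratio in each wound comparison. Its level was 2371 CPM in unwounded +/+ cells, 5584 CPM at 3 days and 5554 CPM at 5 days. The fl/fl pools had 2537, 5508 and 5892 CPM. The lowest wounded pool, at 5508 CPM, thus lay far above the highest unwounded pool, at 2537 CPM. The log2 ratios were 1.24 (1.20 to 1.27) and 1.23 (1.20 to 1.26) in +/+ cells and 1.12 (1.09 to 1.14) and 1.22 (1.19 to 1.24) in fl/fl cells.

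Rpl41, the smallest protein of the ribosome, followed the same order. It stood at 2492, 5147 and 5302 CPM in +/+ cells and at 2588, 5186 and 5401 CPM in fl/fl cells (unwounded, 3 and 5 days). The log2 ratios were 1.05 and 1.09 in +/+ and 1.003 and 1.06 in fl/fl cells, so the 4 wounded pools did not overlap the 2 unwounded ones. Rpl15, a large subunit protein, went from 1668 CPM in unwounded +/+ cells to 2909 and 3032 CPM at 3 and 5 days, and from 1787 to 3009 and 2912 CPM in fl/fl cells. Its log2 ratios lay between 0.70 and 0.86.

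At the other end, 6 members had ratios below 0 with an interval below 0 at 3 days in +/+ cells, and 11 did in fl/fl cells. Such intervals were not counted over all genes, so nothing is read from these counts. Rpl21, a large subunit protein, was at 2748 CPM in unwounded +/+ cells and at 2377 and 2542 CPM at 3 and 5 days. Its fl/fl levels were 3021, 2393 and 2430 CPM, with log2 ratios of -0.34 (-0.36 to -0.31) and -0.31 (-0.34 to -0.29). Rps14, a small subunit protein, was at 3210, 2814 and 2963 CPM in +/+ cells and at 3518, 2863 and 2809 CPM in fl/fl cells. In both genes the wounded pools lay below the unwounded pools.

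Rps27, a zinc-binding protein of the small subunit, was at 1756, 1571 and 1689 CPM in +/+ cells (unwounded, 3 and 5 days) and at 1932, 1589 and 1507 CPM in fl/fl cells. Rps21 had log2 ratios of -0.10 and -0.01 in +/+ cells (3 and 5 days) and of -0.24 and -0.20 in fl/fl cells, and Rpl35a of -0.08 and -0.02, and of -0.18 and -0.21. All 5 of these lower values are on the CPM scale and turn above 0 with TMM factors. In cells of 5000 to 15000 UMIs, which leaves 125 of 1281 cells of the +/+ pool at 3 days, Rpl21 was at 0.06, Rps14 at 0.12, Rps27 at 0.31 and Rpl35a at 0.15. Rps21 was at 0.07 with up to 20% mitochondrial UMIs. Rps2 and Rpl41 were above 0 in all 4 wound comparisons under each of 10 other choices of cells and scaling, with lowest values of 0.58 and 0.59.

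**Figure D3:**
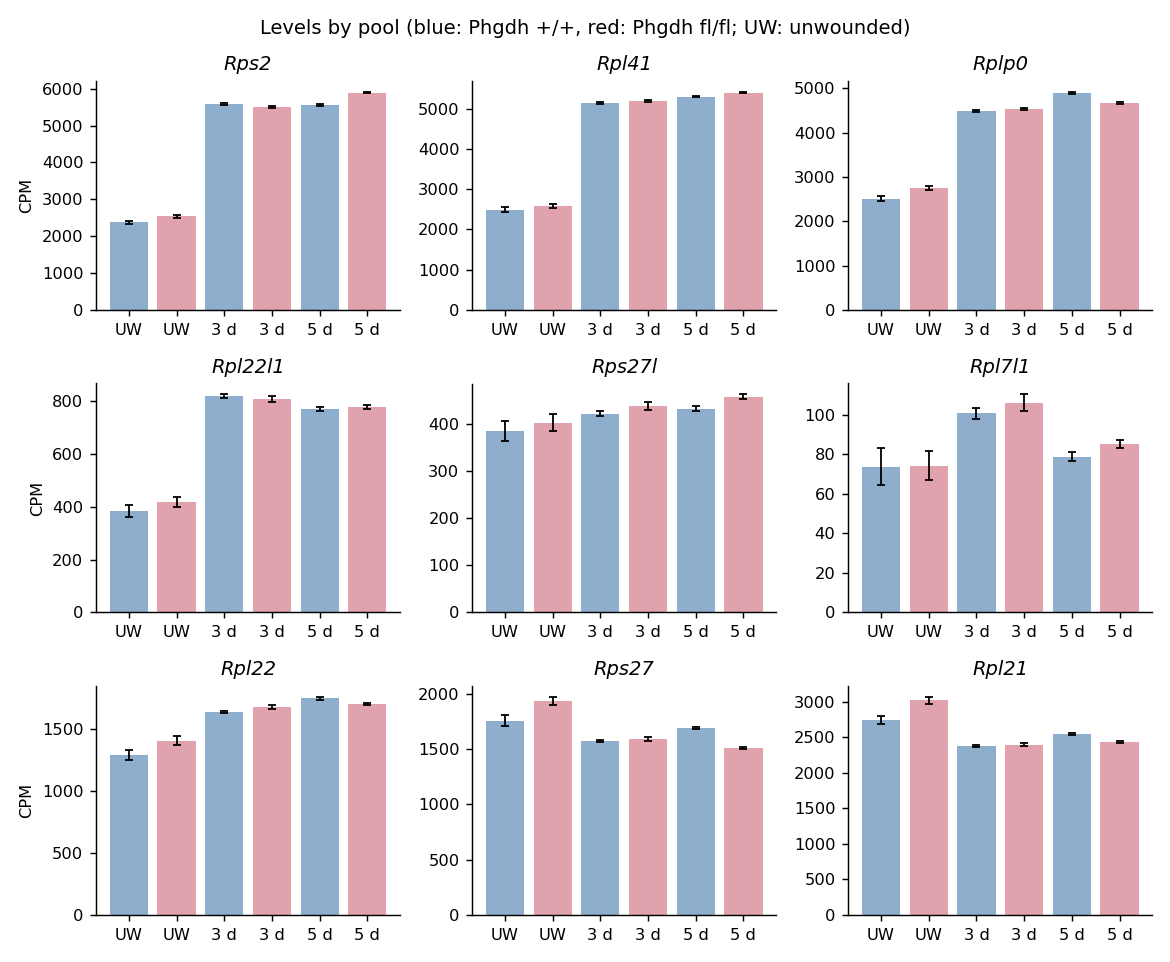
CPM (y axis, from 0) of 9 ribosomal protein genes in the 6 pools, blue Phgdh +/+ and red Phgdh fl/fl, with 95% Poisson intervals of the counts. The 4 wounded pools lie above the unwounded ones for Rps2, Rpl41, Rplp0, Rpl22l1 and Rpl22 and below them for Rps27 and Rpl21, while Rpl7l1 is highest at 3 days.

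The 3 proteins of the ribosomal stalk, which recruits elongation factors, were all higher in wounded pools but by different amounts. Rplp0, the base of the stalk, was at 2511, 4489 and 4896 CPM in +/+ cells (unwounded, 3 and 5 days) and at 2755, 4528 and 4661 CPM in fl/fl cells. Its log2 ratios were 0.84 and 0.96 in +/+ and 0.72 and 0.76 in fl/fl cells. Rplp1 had ratios of 0.64 and 0.72 in +/+ and 0.51 and 0.57 in fl/fl cells. Rplp2, its partner in the stalk dimer, had 0.49 and 0.56, and 0.33 and 0.34. In each wound comparison the ratio of Rplp0 lay above that of Rplp1, and that of Rplp1 above that of Rplp2, with intervals that did not overlap.

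Rpsa, a small subunit protein also known as the laminin receptor, was at 2467 (+/+) and 2647 CPM (fl/fl) without a wound, against 4048 to 4322 CPM with one. Its log2 ratios lay between 0.65 and 0.79. Rps6, the small subunit protein that S6 kinases phosphorylate downstream of mTOR, was at 1433 and 1510 CPM unwounded and between 2128 and 2165 CPM wounded. Rpl5 and Rpl11, which bind MDM2 together with 5S ribosomal RNA when assembly is disturbed, differed less. Rpl5 had log2 ratios of 0.15 and 0.18 in +/+ and 0.03 and 0.04 in fl/fl cells, and Rpl11 had 0.29, 0.37, 0.19 and 0.25.

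Of the 6 pairs of a member and its second copy, the pair Rpl22 and Rpl22l1 showed the widest gap between copies at 3 days among the pairs with both copies at 50 CPM. Rpl22l1, a paralog of Rpl22 that also regulates splicing, was at 383.5, 817.3 and 771.3 CPM in +/+ cells (unwounded, 3 and 5 days) and at 418.2, 808.5 and 777.3 CPM in fl/fl cells. Its log2 ratios were 1.09 (1.01 to 1.17) and 1.01 (0.93 to 1.09) in +/+, and 0.95 (0.89 to 1.02) and 0.89 (0.83 to 0.96) in fl/fl cells. Rpl22 had ratios of 0.35 and 0.44 in +/+ and 0.26 and 0.27 in fl/fl cells. The intervals of the copies did not overlap in any of the 4.

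Rps27l, a p53-responsive relative of Rps27, had ratios above 0 where Rps27 was below. It was at 384.4, 420.9 and 431.2 CPM in +/+ cells and at 402.0, 437.4 and 456.9 CPM in fl/fl cells, with log2 ratios between 0.12 and 0.18. In cells of 5000 to 15000 UMIs its ratio turned to -0.15 at 3 days and -0.11 at 5 days in +/+ cells, and to -0.06 at 5 days in fl/fl cells. Rpl7l1, a relative of Rpl7 that acts in the assembly of the large subunit, was at 73.4, 100.8 and 78.8 CPM in +/+ cells and at 74.1, 106.0 and 85.4 CPM in fl/fl cells. It was higher at 3 than at 5 days in both genotypes, and of all 80 members it had the lowest ratio of 5 over 3 days, -0.35 in +/+ and -0.31 in fl/fl cells. Rpl7 had ratios of 0.19 and 0.22 in +/+ and 0.09 and 0.05 in fl/fl cells, with no such peak.

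The other 3 copies were near or at the limit of detection. Rpl3l, the heart and muscle form of Rpl3, had 0 to 4 UMIs per pool, and Rpl10l, the testis form of Rpl10, 0 to 2 UMIs. A count of 0 allows up to 0.926 CPM in the unwounded +/+ pool and 0.581 CPM in the unwounded fl/fl pool. Rpl39l, a testis-enriched form of Rpl39, had 10, 0, 4, 7, 91 and 3 UMIs in the unwounded, 3-day and 5-day pools (+/+ before fl/fl each time). These UMIs were not spread over cells: in the +/+ pool at 5 days 11 of 1353 cells held 86 of the 91 UMIs, up to 13 in 1 cell. Those 11 cells fell into 7 clusters, and 1 of them was female. All 10 UMIs of the unwounded +/+ pool came from 1 cell of 65137 UMIs in the wound-edge-like cluster. Rpl3, Rpl10 and Rpl39 themselves had ratios between -0.01 and 0.50. Members with near-identical pseudogenes are uncertain, since the sources used here do not give how reads that match several places were counted.

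Dividing each member by the sum of all members removes the scaling of the other genes. By this measure the shares of 3 members, Rps2, Rpl41 and Rpl22l1, were at least 1.5-fold higher in each wound comparison. No member was lower by that factor in 3 of the comparisons, and Rps27 was in fl/fl cells at 5 days (log2 ratio -0.61). Rps2 went from 1.39% of ribosomal protein UMIs in unwounded +/+ cells to 2.58% at 3 days, and from 1.37% to 2.52% in fl/fl cells. Rpl41 went from 1.46% to 2.37%, and from 1.39% to 2.37%. Rpl21 went from 1.61% to 1.097% in +/+ cells and from 1.63% to 1.096% in fl/fl cells. Rpl22 differed little, with 0.75% and 0.76% in the +/+ pools and 0.76% and 0.77% in the fl/fl pools (unwounded and 3 days). At 3 days in +/+ cells 33 members had an interval above 0 on this scale and 41 below. Shares within the members have a fixed total, so members lie on both sides, and nothing is read from these counts.

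Between genotypes the members differed far less than between wounded and unwounded pools. In unwounded skin all 80 members were higher in fl/fl than in +/+ cells, by a log2 ratio between 0.01 and 0.19, with a summed ratio of 0.12 (0.11 to 0.12). With cells limited to 5% mitochondrial UMIs, Rps2 turned to -0.05, Rps27l to -0.04, Rpl4 to -0.03 and Rpl22l1 to -0.02. None was 1.5-fold apart, and among all genes 0.493% were higher and 2.3% lower by that factor. At 3 days the summed ratio was 0.01, with 60 members above and 20 below 0. None was 1.5-fold apart, against 0.131% of all genes higher and 0.69% lower. At 5 days the summed ratio was -0.05, with 16 members above and 64 below 0, and again none 1.5-fold apart, against 0.0986% higher and 3.98% lower. The 3-day value turned to -0.01 without the female cells of the +/+ pool and to -0.03 in cells of 5000 to 15000 UMIs. At 5 days leaving out the female cells gave -0.05 again. The median ratios of all 3043 genes were -0.02 unwounded, -0.01 at 3 days and 0.01 at 5 days. The share of all genes above 0 was not counted, so nothing is read from the counts of members on each side of 0.

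**Figure D4:**
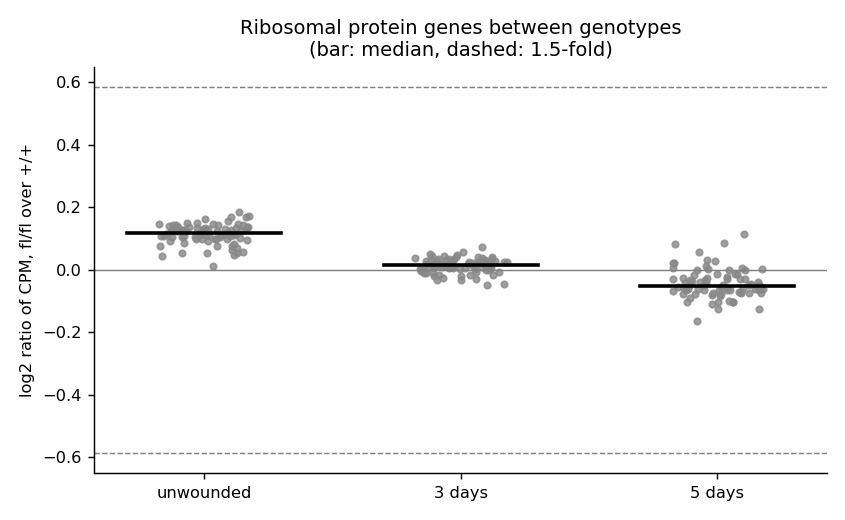
Log2 ratio of CPM, Phgdh fl/fl over Phgdh +/+ (y axis), for 80 ribosomal protein genes (points, spread sideways for visibility) at each of 3 stages (x axis), with the median as a bar and the 1.5-fold limits dashed. All points lie within the limits; the medians are 0.12 unwounded, 0.01 at 3 days and -0.05 at 5 days.

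Few members stood out between genotypes. In unwounded cells the highest ratios were those of Rps19 at 0.19 (0.15 to 0.22), a small subunit protein mutated in Diamond-Blackfan anemia, and of Rpl3, Rpl12 and Rps13 at 0.17, and of Rpl10 at 0.16. Rpl7l1 was lowest at 0.01 (-0.22 to 0.25). Rpl4 at 0.04 and Rpl27 at 0.05 were also among the lowest. At 3 days all ratios lay between -0.05 (Rps26 and Rps29) and 0.07 (Rpl7l1), with Rps27l at 0.06 and Rpl15 at 0.05. At 5 days Rps27 was lowest at -0.16 (-0.18 to -0.15), followed by Rps4x and Rps24 at -0.12, Rpl39 at -0.11 and Rps19 at -0.10. Rpl7l1 was highest at 0.11 (0.06 to 0.17), with Rps2 at 0.09, Rps27l at 0.08 and Rpl31 at 0.06. In cells of 5000 to 15000 UMIs Rpl7l1 turned to -0.48 at 3 days and -0.11 at 5 days, Rpl15 to -0.06 at 3 days and Rpl31 to -0.10 at 5 days.

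The wound ratios of the members resembled each other between the genotypes, which share no pool. Over 80 members the +/+ and fl/fl ratios had a Pearson correlation of 0.99 at 3 days and 0.98 at 5 days. Over all 3043 genes it was 0.98 at both times. This is a correlation across genes measured in 1 capture, and genes are not independent replicates. The +/+ ratio was the larger for 79 of 80 members at 3 days and for 78 at 5 days, and the unwounded +/+ pool, which is the lowest of the 6 in ribosomal protein share, enters all of those ratios.

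From 3 to 5 days the share of members went from 21.7% to 22.8% in +/+ and from 21.8% to 22.1% in fl/fl cells. The summed log2 ratio of 5 over 3 days was 0.08 in +/+, with 76 members above and 4 below 0, and 0.02 in fl/fl cells, with 52 above and 28 below. All genes were not counted in this way, so nothing is read from these counts. Rps27a, which is made as a fusion with ubiquitin, was highest in +/+ at 0.17, and Rps26 was highest in fl/fl cells at 0.17.

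The members' share varied more between kinds of cell than between genotypes. Cells were clustered without the members, their pseudogenes and mitochondrial genes. Over clusters of at least 50 cells the share ranged from 1.53% to 26.8% of UMIs. The lowest was cluster 16, with 95 cells that carry bulge markers. The next was a granular keratinocyte-like cluster, named for cells close to the skin surface, with 14.6% (121 cells). It had 3 of 7 granular markers raised (Cnfn, Lce3c and Klk7), and 6 of 7 wound-edge markers were raised in it too. The 2 main unwounded bulge-like clusters, numbers 6 and 15, had 18.4% and 20.1%. Wound-edge keratinocyte-like cells had 20.2%, the cycling-like cluster 22.0%, suprabasal keratinocyte-like cells 23.9%, and the bulge-like cells found almost only in wounded pools (cluster 10) 24.2%. Cluster 8 (325 cells, 23.5%) also had all 6 cycling markers raised, and was left unnamed because its 10 leading genes held Pparg, a sebaceous marker, and no cycling marker. The highest share, 26.8%, was that of an unnamed cluster of 112 cells led by Sox6, Il1r2 and Gna14.

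**Figure D5:**
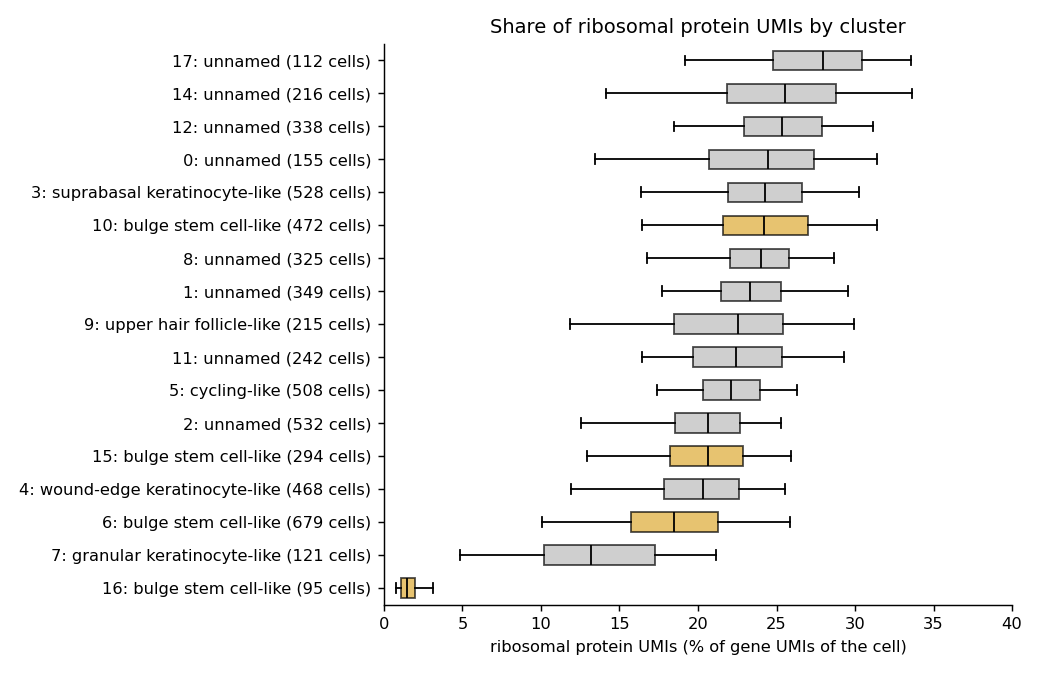
Share of ribosomal protein UMIs per cell (% of the gene UMIs of the cell, x axis) in the 17 clusters of at least 50 cells over all pools, ordered by their median; boxes span the quartiles, whiskers the 5th to 95th percentile, and bulge-like clusters are yellow. Cluster 16 lies near 1.5%, the granular-like cluster at 13.2%, and the other clusters between 18.4% and 27.9% at their medians.

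Cluster 16 stood apart from every other cluster and came almost only from the unwounded pools. It held 52 of 406 unwounded +/+ cells (12.8%, exact binomial interval 9.72% to 16.5%) and 40 of 662 unwounded fl/fl cells (6.04%, 4.35% to 8.14%), and at most 1 cell in each wounded pool. Its cells had medians of 4685 UMIs, 8.42% mitochondrial UMIs and 3.57% Malat1, against 7173 UMIs, 5.10% and 1.63% in cluster 6. The free RNA, measured in barcodes of 100 to 400 UMIs, held 14.3% ribosomal protein UMIs, which is above the share of these cells. Without cluster 16 the unwounded shares were 18.4% and 19.2%, the wound ratios 0.24 and 0.32 in +/+ and 0.19 and 0.20 in fl/fl cells, and the unwounded genotype ratio 0.06. Cluster 16 was picked as the bulge-like cluster of lowest ribosomal protein share. Leaving it out therefore had to raise the unwounded shares and lower the wound ratios. It was also more frequent in +/+ cells, so the genotype ratio had to fall too. The values show only the size of these shifts. The members at least 1.5-fold higher then numbered 6 and 12 in +/+ cells at 3 and 5 days. The share of all genes was not counted without cluster 16, so nothing is read from these 2 counts. Within cluster 6 the unwounded shares were 18.1% in fl/fl and 17.9% in +/+ cells, and within cluster 15 they were 20.4% and 19.2%.

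The comparison was repeated within bulge-like cells, in which clusters 6 and 15 hold most unwounded cells and cluster 10 most wounded cells. The sort gates still differ between these unwounded and wounded cells, so gate, cluster and wound cannot be told apart here. At 3 days the members took 24.2% of UMIs in 211 wounded +/+ bulge-like cells and 16.8% in 389 unwounded ones, a summed log2 ratio of 0.53. The fl/fl values were 24.8% in 99 cells and 18.3% in 639 cells, a ratio of 0.44. Without cluster 16 the ratios were 0.41 and 0.39. In +/+ cells all 80 members were above 0, and 29 were at least 1.5-fold higher and 0 lower, against 28.9% and 19.1% of all genes. Without cluster 16, 77 were above 0 and 20 at least 1.5-fold higher. In fl/fl cells 77 were above 0 and 23 higher, or 77 and 18 without cluster 16. On day 5 the ratios were 0.46 in +/+ (151 wounded cells) and 0.41 in fl/fl cells (51 wounded cells), with 23 and 19 members at least 1.5-fold higher, or 11 and 19 without cluster 16. Within bulge-like cells the share of all genes was counted only for +/+ cells at 3 days, with cluster 16 kept in. Nothing is read from the other counts at 1.5-fold. The wounded bulge-like cells were deeper, with a median of 20248 UMIs against 7125 in +/+ cells at 3 days.

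Rps2, Rpl22l1 and Rpl41 also had high ratios within bulge-like cells. Rps2 was at 5075 CPM in wounded and 2036 CPM in unwounded +/+ bulge-like cells at 3 days, a log2 ratio of 1.32 (1.28 to 1.36), and Rpl22l1 was at 839.4 and 335.1 CPM, also 1.32 (1.22 to 1.43). Rpl41 had a ratio of 1.12 and Rplp0 one of 1.08. Rps27 was higher in wounded bulge-like cells, by 0.32 in +/+ and 0.31 in fl/fl cells, where the whole pools had it lower. Rpl21 and Rps14 were at 0.01 and 0.02 in +/+ cells and at -0.13 and -0.04 in fl/fl cells. Without cluster 16 they were at -0.11 and -0.10 in +/+ cells, and Rps27 at 0.19.

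Within a single pool, the +/+ pool at 3 days, 12 clusters had at least 50 cells. In most of them nearly all members had log2 ratios to the rest of the pool on the same side of 0. The upper hair follicle-like cluster had 39 members above and 41 below 0, and the suprabasal-like cluster 60 and 20. All 80 members were lowest in the granular-like cluster (60 cells), where they took 14.3% of UMIs against 22.2% in the rest of the pool, and 53 were highest in cluster 17. Between the lowest and the highest cluster a member's CPM differed by 1.87-fold in the median, from 1.33-fold for Rpl22l1 to 3.03-fold for Rpl7l1. Rps27l ranged from 194.9 CPM in the granular-like cluster to 547.2 CPM in an unnamed cluster, and Rps2 from 3261 to 6923 CPM. Rps27 was highest in the bulge-like cluster 10, at 2282 CPM, against a median of 1577 CPM over the 12 clusters. In cluster 10 Rpl41 was the lowest member relative to the rest of the pool, at -0.14, and Rps27 the highest, at 0.61. In suprabasal-like and upper hair follicle-like cells Rpl7l1 was lowest, at -0.77 and -0.70, while Rplp0 was highest, at 0.27 and 0.19.

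Rack1 and Fau, ribosomal proteins that the symbol rule does not catch, had ratios inside the range of the members. Rack1, a scaffold of the small subunit, was at 1302 and 1367 CPM unwounded and between 1882 and 1973 CPM wounded. Fau, made as a fusion with a ubiquitin-like protein, had log2 ratios of 0.21 at 3 days in +/+ cells and of 0.12 in fl/fl cells.

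Of 24 translation factors and other genes with oligopyrimidine tracts, 8 were at least 1.5-fold higher and 1 lower at 3 days in +/+ cells. Of all 10045 genes of at least 5 CPM, 21.1% were higher and 38.7% lower. The fl/fl counts were 8 and 1, against 21.6% and 38.6%. The median was 0.36 and 0.37, against -0.24 and -0.26 for all genes of that minimum. Among all 3043 genes of at least 50 CPM, 29.7% (+/+) and 30% (fl/fl) were higher and 25.6% and 26% lower. Their medians were 0.15 and 0.12. The contrast with all genes thus depends on the minimum, and the gene lists were not recounted at 50 CPM. Npm1, a nucleolar chaperone of ribosome assembly, was at 823.1 and 854.1 CPM unwounded and between 1865 and 2299 CPM wounded. Pabpc1, the poly(A)-binding protein, had log2 ratios of 1.08 (+/+) and 1.06 (fl/fl) at 3 days. The elongation factors Eef1a1 and Eef2 had ratios between 0.24 and 0.39. Tpt1, which carries a classical oligopyrimidine tract, was lower, at 6356 and 6908 CPM unwounded and between 4442 and 4869 CPM wounded, a ratio of -0.39 at 3 days in +/+ cells that the TMM shift of 0.56 turns above 0. Eif4a2, an RNA helicase of initiation, was lowest, with ratios between -1.85 and -1.56.

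Of 78 mitochondrial ribosomal protein genes, which build the separate ribosome of mitochondria, 39 were higher and 1 lower at 3 days in +/+ cells and 38 and 1 in fl/fl cells, with a median of 0.58 in both (all genes of at least 5 CPM 21.1% and 38.7%, and 21.6% and 38.6%). Mrpl12 had ratios of 1.47 and 1.53. The shares of all genes just given apply to each list below. Of 11 measured assembly factors and chaperones of ribosomal proteins, 6 were higher and none lower in both genotypes at 3 days, with medians of 0.61 and 0.63. Eif6, which keeps the large subunit from joining too early, was at 148.4 and 136.8 CPM unwounded and between 381.9 and 457.9 CPM wounded.

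Of 13 regulators of oligopyrimidine mRNAs and ribosome synthesis at that minimum, 5 were higher and 1 lower in +/+ cells at 3 days, and 4 and 1 in fl/fl cells. Eif4ebp1, the mTOR-regulated repressor of initiation, had log2 ratios between 1.89 and 2.40, and Maf1, a repressor of RNA polymerase III, between -1.24 and -0.80. Of 9 genes of the p53 response to ribosome stress, 1 was higher and 2 lower in +/+ cells, and 0 and 2 in fl/fl cells. Cdkn1a was at 116.3 CPM in unwounded +/+ and 168.4 CPM in unwounded fl/fl cells and between 214.0 and 245.5 CPM wounded. Of 9 genes of ribosome quality control, 0 were higher and 2 lower in both genotypes, among them Map3k20, the kinase that senses collided ribosomes, with ratios between -1.25 and -1.10. For both of these lists the share of lower genes is below the 38.7% and 38.6% of all genes, and nothing is read from it.

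Of 12 immediate-early genes that dissociation of tissue also induces, 0 were higher and 7 lower in +/+ cells at 3 days and 0 and 9 in fl/fl cells, with medians of -0.81 and -1.57, or -0.25 and -1.03 with TMM. Of all genes 38.7% and 38.6% were lower. Between unwounded genotypes the median was 0.47, higher in fl/fl cells, where the ribosomal protein share was also the higher of the 2. The part of these genes in the ribosomal protein difference was not tested. Of 15 targets of ATF4, the factor of the amino acid response, 13 were higher and 1 lower in +/+ cells and 11 and 3 in fl/fl cells at 3 days, with medians of 1.70 and 2.13, against 21.1% and 21.6% of all genes higher. The list includes the floxed gene Phgdh, at 54.3 and 116.8 CPM in +/+ cells (unwounded and 3 days) and at 25.2 and 15.3 CPM in fl/fl cells. Phgdh thus counts as higher in +/+ and as lower in fl/fl cells. Psat1, the serine synthesis enzyme after PHGDH, was at 13.9 and 12.4 CPM unwounded and between 78.6 and 87.8 CPM wounded.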

How the data were processed

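UMI counts of genes and hashtags from 1 capture of 3′ droplet libraries were used as deposited by the authors, who ran Cell Ranger 7.1.0 and Seurat 4.3.0 with the build mm10, per the submitters' processing notes. How reads matching several places were counted is not given in the sources used here. Of 2997303 barcodes, 6900 had at least 1000 gene UMIs, 500 genes and at most 10% mitochondrial UMIs (2929 were dropped for the last). Hashtag counts were demultiplexed with HTODemux (Seurat 5.3.0, R 4.3.3), and 5659 singlets were kept, after 503 doublets and 738 negatives. Counts were summed per condition. With 1 pool per condition, ratios of CPM carry exact conditional binomial 95% intervals, which cover counting error only; no p-value was computed. On simulated counts the intervals held the true value for 94.9% (unwounded genotypes) and 95.8% (3 days, +/+) of 2843 unchanged genes. For genes given a fold change, in groups of 50, they held it for between 90% and 98%. The counts were drawn from the Poisson model behind the intervals. This checks the calculation alone and not variation between cells or animals. Cells were clustered in scanpy 1.11.5 (Python 3.11.15) on 2000 variable genes, 30 components and 15 neighbours, without the members, their pseudogenes and mitochondrial genes. A cluster was named only where at least 3 markers of a type were raised (10 CPM, 2-fold) and 50% or more of its cells held at least 3 UMIs of them, and no other type had more markers among its 10 leading genes. A female cell had at least 2 Xist UMIs and at most 1 UMI of Y-linked genes. TMM factors came from edgeR 4.0.16.

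The members and gene lists were chosen with earlier results of these data known. The text names, per comparison, the 5 highest and 5 lowest members of at least 50 CPM, the second copies and their partners, the stalk proteins, Rpsa, Rps6, Rpl5 and Rpl11; a few of these are not reported here. From each list come up to 4 genes above 20 CPM, those farthest from no difference, and also Eef1a1, Eef2, Tpt1 and Pabpc1. Alternatives were other limits on UMIs and mitochondrial share, another hashtag rule, TMM, other totals, equal weight per cell, free RNA subtracted, a depth window and cells without Xist. Leaving out cluster 16, or melanocyte-marker and myeloid-like cells, was added after seeing the data. Cluster 16 was picked as the bulge-like cluster with the lowest median ribosomal protein share. Figures were drawn with matplotlib 3.10.9.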

Additional observations from a re-analysis of the deposited data

Results flagged for a closer look

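Between 5 days and unwounded skin, Rps19, Rps24 and Rps4x had ratios above 0 in +/+ and below 0 in fl/fl cells. The fl/fl minus +/+ difference in log2 ratio was -0.29 for Rps19, -0.25 for Rps24 and -0.26 for Rps4x. With TMM factors all 80 members were above 0 in both genotypes, so these 3 show no change of side on that scale. The summed members were higher in fl/fl than in +/+ cells when unwounded and lower at 5 days, a difference of -0.17 in log2 ratio. Without cluster 16 the unwounded ratio of fl/fl over +/+ was 0.06, against 0.12 with it. The same change of side between 3 and 5 days came to -0.059, but the 3-day ratio is itself below 0 without female cells (-0.0051) and in cells of 5000 to 15000 UMIs (-0.0253), and there is then no change of side. Each condition is 1 pool, so none of these differences was tested.

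Of the 5 pseudogenes that the symbol rule leaves out, 4 held UMIs above the 3 that a count of 0 allows. Over the 6 pools Rpl9-ps6 had 12286 UMIs, Rpl10-ps3 had 7603, Rpl36a-ps1 had 4777 and Rpl9-ps1 had 23. Their sum was between 0.0104% and 0.0122% of gene UMIs in each pool.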

How the results depend on the processing

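No paired analysis was possible because each condition is 1 pool with no replicate, and no replicate could be left out. Values below are summed log2 ratios in the order +/+ at 3 days, +/+ at 5 days, fl/fl at 3 days, fl/fl at 5 days, then fl/fl over +/+ unwounded, at 3 days and at 5 days, where they moved beyond counting error. At least 2000 UMIs gave 0.326 and 0.403 for +/+, then 0.103, 0.0135 and -0.0498 between genotypes. At most 5% mitochondrial UMIs gave 0.187, 0.260, 0.131, 0.160, 0.0607, 0.0051 and -0.0392. At most 20% gave 0.494, 0.552, 0.366, 0.378 and 0.137, and -0.0368 at 5 days. The other hashtag rule gave 0.356, 0.425, 0.245 and 0.266, and -0.0371 at 5 days. TMM gave 0.901, 1.018, 0.768, 0.817, 0.170, 0.0364 and -0.0306. Totals without ribosomal protein and mitochondrial genes gave 0.409, 0.511, 0.280, 0.299, 0.145, 0.0164 and -0.0666. Equal weight per cell gave 0.451, 0.536, 0.290, 0.316, 0.160, 0.0002 and -0.0604. Subtracting free RNA gave 0.338, 0.414, 0.227 and 0.244. Cells of 5000 to 15000 UMIs gave 0.422 (+/+, 3 days), 0.301, 0.284, 0.0953, -0.0253 and -0.0395, which reverses the genotype ratio at 3 days. Leaving out female cells gave 0.359 (+/+, 3 days) and reversed the same genotype ratio to -0.0051. Leaving out cluster 16 gave 0.240, 0.316, 0.187, 0.205 and 0.0638, and 0.0540 within bulge-like cells between unwounded genotypes. That cluster was chosen after seeing the data, for its low ribosomal protein share. The members at least 1.5-fold apart numbered 13, 22, 8 and 8 in the 4 wound comparisons. At 3 days in +/+ cells they were 5 and 28 under the 5% and 20% mitochondrial limits, 70 with TMM, 20 with the other totals, 26 with equal weight, 3 as shares of ribosomal protein UMIs and 6 without cluster 16. At 5 days in +/+ cells they were 14 with 2000 UMIs, 8 under the 5% limit, 76 with TMM, 3 as shares and 12 without cluster 16. At 3 days in fl/fl cells they were 5 and 20 under the mitochondrial limits, 60 with TMM and 3 as shares. At 5 days in fl/fl cells they were 19 under the 20% limit, 63 with TMM, 15 with equal weight and 4 as shares. Of these settings the share of all genes was recounted only with TMM, so the other counts are not read against it. Between genotypes, dropping the 50 CPM minimum gave 2 members at 3 days and 2 at 5 days instead of 0. The other 24 summed ratios and 78 counts moved less and are not listed, but not all of those counts were stable. At 5 days in +/+ cells the 22 became 32 under the 20% mitochondrial limit, 31 with equal weight and 28 with the other totals. At 3 days in +/+ cells the 13 became 18 in cells of 5000 to 15000 UMIs. The causes were not tested. The unwounded pools had 3241223 and 5167131 gene UMIs, the fewest of the 6, which limits the precision of every wound ratio.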
